A study of Homo sapiens with 4 samples.

Results

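The mRNAs that encode the microRNA processing and Argonaute machinery were examined in U251 cells with and without knockdown of PRMT3, a protein arginine methyltransferase. The 10 genes were AGO1, AGO2, AGO3, AGO4, DICER1, DROSHA, DGCR8, XPO5, TARBP2 and TNRC6A. They were chosen by name for their known roles, with earlier results of these data known, and matched by symbol in a table of 15575 genes. All 10 were in the table, and all 10 were among the 13172 genes that passed a filter on low counts and were tested. U251 is an established human glioblastoma (GBM) cell line. RNA-seq was carried out on 2 Ctrl libraries and 2 PRMT3-KD libraries. Ctrl cells carried a control lentivirus, labelled pGreen and described in the study as a control shRNA, and PRMT3-KD cells a lentiviral shRNA against PRMT3. Both groups are the same cell line and carry a lentiviral vector. In separate assays the study reports cell cycle arrest and more apoptosis in U251 cells within days of PRMT3 knockdown. The part of this state in the results below was not tested. The sources used here do not name the PRMT3 shRNA behind these libraries or say whether the cells are a clone or a pool. They also do not say whether the 2 libraries of a group came from separate cultures, so p-values measure only the spread between these libraries, which may be technical.

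MicroRNAs are cut from long primary transcripts in the nucleus by the Microprocessor, which pairs the nuclease DROSHA with the RNA-binding protein DGCR8. The hairpin that is released is exported by exportin 5 (XPO5) and cut by DICER1 with its partner TARBP2, and a single strand is then loaded into an Argonaute protein (AGO1 to AGO4), which recruits GW182 proteins such as TNRC6A to silence target mRNAs. An shRNA expressed from a vector uses the export, dicing and loading steps of the same pathway.

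Of the 10 genes, 4 passed an adjusted p of 0.05 in edgeR's quasi-likelihood test (adjusted over all genes tested by Benjamini-Hochberg), together with a change of over 1.5-fold. AGO2 and DICER1 were higher in PRMT3-KD cells, and AGO1 and DGCR8 were lower. Among all genes tested, 10.9% passed the same threshold, 4.97% as higher and 5.97% as lower. At an adjusted p under 0.05 with no fold threshold, 5 of the 10 passed, 3 higher and 2 lower, where the added gene was AGO3. The share of all genes that passed on that rule was 17.3%, with 8.39% higher and 8.91% lower. The median log2 fold change of the 10 genes was -0.057, against 0.0055 over all genes tested, and the median size of the change without its sign was 0.41 against 0.29. Genes past the threshold thus lay in both directions, within the Argonaute family as well as along the processing steps.

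Total counts per library ranged from 24804250 to 29756313. The knocked-down gene, PRMT3, was counted 535 times in either Ctrl library, 77 times in PRMT3-KD library 1 and 45 times in library 2, a fitted log2 change of -3.08 (standard error, SE, 0.314, adjusted p = 0.0177, edgeR). The 2 Ctrl libraries lay close together: their counts had a chi-square of 1.41 per gene, where counting error alone gives about 1, against 70.7 for the 2 PRMT3-KD libraries. For the 10 genes the same values were 0.865 and 18.8. The Ctrl spread given below is therefore close to counting error for these genes, and the model shares 1 spread estimate between the groups. With 2 libraries a group, the smallest p that an exact permutation test could give (two-sided) is 0.333, and every p-value given here comes from the fit over all genes. The 7 glial and glioma markers checked summed to between 7510 and 8496 CPM (counts scaled to the library total, on edgeR's TMM scale) in the 4 libraries. VIM made up most of the sum, at 4453 to 5399 CPM, and CD44 and NES were also at high counts. SOX2 and EGFR lay between 132 and 195 CPM, while S100B was low, at 1.93 to 2.82 CPM. GFAP, the astrocyte filament gene, was counted 363 and 392 times in Ctrl against 32 and 153 times in PRMT3-KD libraries. By edgeR 0 of the 7 markers passed an adjusted p of 0.05, 1 (GFAP) had an unadjusted p under 0.05, and DESeq2 and limma-voom each called 1 as lower. Of 11 markers of other cell types, 8 were in the table, and they summed to 10.2 and 9.78 CPM in Ctrl and 11.0 and 29.3 CPM in PRMT3-KD libraries. The endothelial gene CDH5 made up most of the last value, with 722 counts in PRMT3-KD library 2 against 129 to 146 in the other libraries. The part of this difference in the results below was not tested, and in bulk RNA fewer cells of a type and less RNA per cell cannot be told apart.

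**Figure D1:**
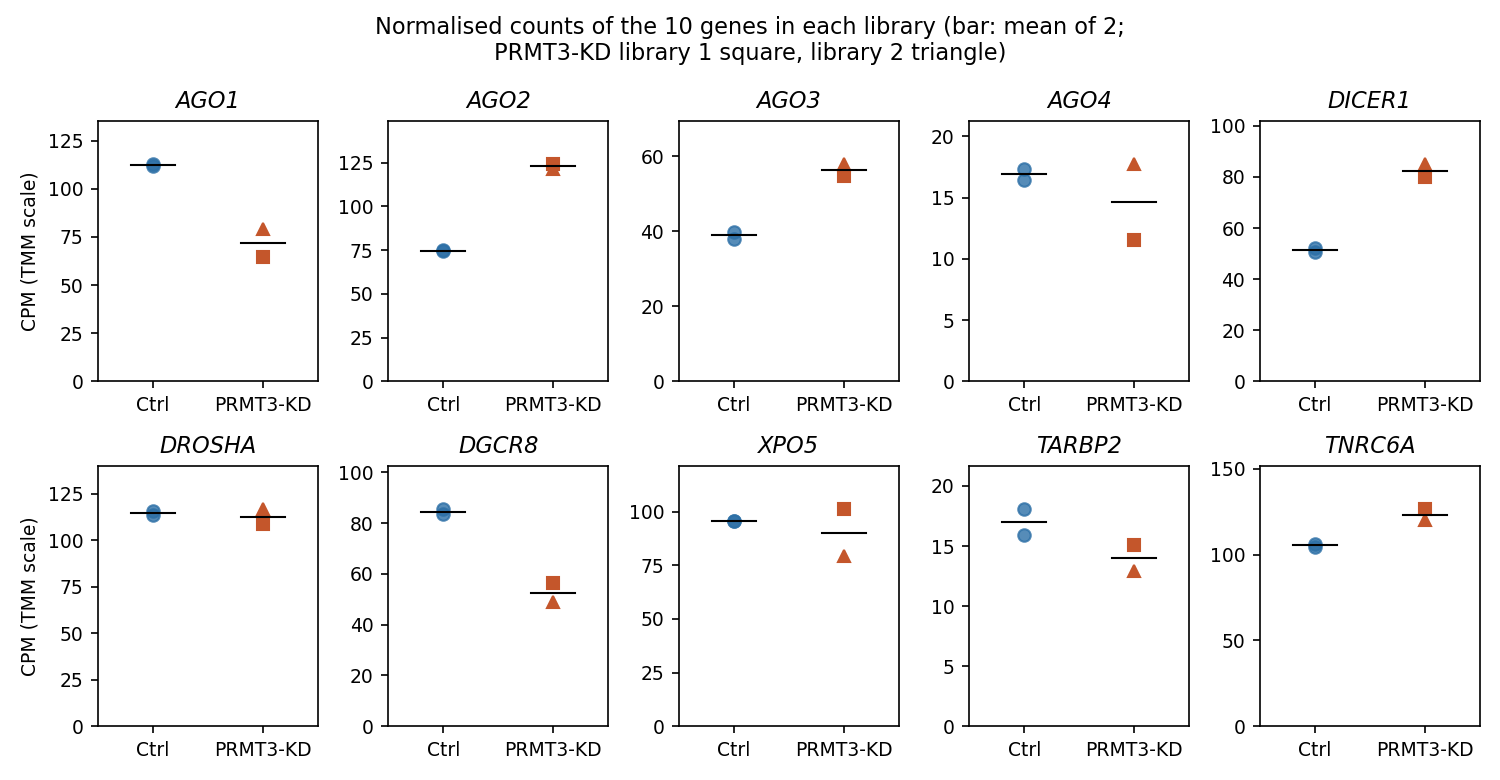
Normalised counts (CPM, vertical axis from 0) of each of the 10 genes in the 2 Ctrl and 2 PRMT3-KD libraries, with 1 point per library and a bar at the mean of each group. AGO2, AGO3, DICER1 and TNRC6A lie above both Ctrl libraries in both PRMT3-KD libraries, AGO1, DGCR8 and TARBP2 lie below, and AGO4, DROSHA and XPO5 overlap.

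The Microprocessor genes differed from each other. DROSHA, the nuclease, was at 116 and 114 CPM in Ctrl and 109 and 117 CPM in PRMT3-KD libraries. The groups overlapped, with a log2 fold change of -0.027 and a 95% interval from -0.23 to 0.17 (adjusted p = 0.825, edgeR). DGCR8, which binds the primary transcript and holds DROSHA on it, was at 85.6 and 83.4 CPM in Ctrl and 56.3 and 49.0 CPM in PRMT3-KD libraries. Both PRMT3-KD values were below both Ctrl values. The mean was 84.5 ± 1.54 CPM in Ctrl cells against 52.7 ± 5.16 CPM (SD, n = 2 each) after knockdown, a log2 change of -0.68 (SE 0.0975, 95% interval -0.94 to -0.42, adjusted p = 0.0235, edgeR). Against the Ctrl mean, PRMT3-KD library 1 was at -0.583, just under 1.5-fold, and library 2 at -0.782. Without library 2 the fitted log2 change was -0.590, just over 1.5-fold. The log2 ratio of DROSHA to DGCR8 CPM was 0.44 and 0.45 in Ctrl against 0.95 and 1.25 in PRMT3-KD libraries, a ratio within each library that does not depend on the scaling. An unnamed gene on the other strand, ENSG00000243762, covers 7.18% of DGCR8 exon bases and was not among the genes tested.

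DGCR8 (ENSG00000128191) lies on the plus strand at chr22:20067744-20099400 of GRCh37. Exon 2 of its mRNA contains 2 microRNA hairpins on the same strand, MIR3618 at chr22:20073269-20073356, outside the coding part, and MIR1306 at chr22:20073581-20073665, within it. The Microprocessor is known to cut DGCR8 mRNA at such hairpins, so the mature sequences are shown here from RefSeq (GRCh38.p14), with the seed (bases 2 to 8) in capitals. The 3 have different seeds.
hsa-miR-3618: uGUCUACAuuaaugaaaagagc
hsa-miR-1306-5p: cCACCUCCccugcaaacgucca
hsa-miR-1306-3p: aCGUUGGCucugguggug

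The neighbouring gene TRMT2A, a tRNA methyltransferase, lies on the minus strand at chr22:20099398-20104915 of GRCh37, so the 3′ ends of both genes meet and their annotated exons share 3 bases. TRMT2A averaged 31.3 CPM in Ctrl against 20.1 CPM in PRMT3-KD cells, a log2 change of -0.64 (adjusted p = 0.0353, edgeR). It was named after its value was seen, because it overlaps a member. The start region of DGCR8, at the other end of the gene, is shown because DGCR8 fell while its partner DROSHA did not pass. The 300 bases run from 250 before to 50 after the RefSeq start of DGCR8 at chr22:20079991-20080290 (GRCh38.p14, plus strand), and capitals mark GC boxes (GGGCGG) and CCAAT boxes (CCAAT) on either strand. The window holds 3 GC boxes and 4 CCAAT boxes, and the DROSHA window of the same length holds 2 GC boxes and 3 CCAAT boxes. Of 35116 promoter windows of the same length, 45.0% hold at least 1 GC box and 34.6% at least 1 CCAAT box.
DGCR8 promoter: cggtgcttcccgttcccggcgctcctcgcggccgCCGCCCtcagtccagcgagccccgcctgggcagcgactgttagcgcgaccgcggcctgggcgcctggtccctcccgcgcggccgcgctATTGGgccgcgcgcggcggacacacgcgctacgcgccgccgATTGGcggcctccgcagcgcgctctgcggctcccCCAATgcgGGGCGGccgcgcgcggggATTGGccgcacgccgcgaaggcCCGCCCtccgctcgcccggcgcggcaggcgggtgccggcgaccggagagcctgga

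XPO5, the export receptor for the hairpin, was at 95.9 and 95.7 CPM in Ctrl and 101 and 79.2 CPM in PRMT3-KD libraries. PRMT3-KD library 1 was above both Ctrl values and library 2 below both. The log2 fold change was -0.086 with a 95% interval from -0.45 to 0.28 (adjusted p = 0.684, edgeR), and the annotated exons of POLR1C, a gene on the other strand, cover 4.10% of XPO5 exon bases.

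DICER1 and TARBP2, which encode the nuclease that cuts the hairpin and its double-stranded RNA-binding partner, lay on opposite sides of Ctrl. DICER1 was at 50.7 and 52.3 CPM in Ctrl and 79.8 and 85.1 CPM in PRMT3-KD libraries. Both PRMT3-KD values were above both Ctrl values, and the mean rose 1.60-fold, from 51.5 ± 1.09 to 82.5 ± 3.72 CPM (SD, n = 2 each). The log2 fold change was 0.68 (SE 0.0779, 95% interval 0.47 to 0.89, adjusted p = 0.0192, edgeR). TARBP2 was at 18.1 and 15.9 CPM in Ctrl and 15.1 and 12.9 CPM in PRMT3-KD libraries. The groups did not overlap, but TARBP2 did not pass, with a log2 fold change of -0.28 and a 95% interval from -0.65 to 0.087 (adjusted p = 0.217, edgeR). The log2 ratio of DICER1 to TARBP2 CPM was 1.49 and 1.72 in Ctrl and 2.41 and 2.72 in PRMT3-KD libraries. An unnamed gene on the other strand, ENSG00000270175, covers 13.2% of TARBP2 exon bases. The kit's strand setting is not given in the sources used here, so reads from overlapping genes on opposite strands cannot be told apart.

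DICER1 (ENSG00000100697, chr14:95552565-95624347 of GRCh37, minus strand) carries the microRNA hairpin MIR3173 in an intron at chr14:95604256-95604323. RefSeq lists 5 start sites for DICER1. The window of the first, chr14:95157480-95157779 of GRCh38.p14 on the minus strand, is shown as the counterpart of the DGCR8 window, since this gene moved the other way. It holds 1 GC box and 1 CCAAT box, marked in capitals. The window of TNRC6A, which did not pass, holds the same numbers, and each of the other DICER1 windows holds 0 or 1 of either box.
DICER1 promoter: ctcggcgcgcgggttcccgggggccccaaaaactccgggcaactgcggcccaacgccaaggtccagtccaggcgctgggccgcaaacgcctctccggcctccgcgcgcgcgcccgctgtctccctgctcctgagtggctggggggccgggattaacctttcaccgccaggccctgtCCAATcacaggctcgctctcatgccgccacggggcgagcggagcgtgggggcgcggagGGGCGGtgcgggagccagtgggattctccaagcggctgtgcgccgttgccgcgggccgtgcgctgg

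Within the Argonaute family AGO1 fell, AGO2 and AGO3 rose, and AGO4 did not pass. AGO1 was at 113 and 112 CPM in Ctrl against 64.3 and 79.3 CPM in PRMT3-KD libraries. Both PRMT3-KD values were below both Ctrl values, and the mean fell from 112 ± 0.676 to 71.8 ± 10.6 CPM (SD, n = 2 each). The log2 fold change of AGO1 was -0.65 (SE 0.122, 95% interval -0.97 to -0.32, adjusted p = 0.0369, edgeR). The size of this change rested in part on PRMT3-KD library 1: without it the log2 fold change was -0.50, which is under 1.5-fold.

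AGO2, the only human Argonaute with well-established slicing activity and the best-known partner of short hairpin RNAs, was at 75.03 and 74.35 CPM in Ctrl and 124 and 122 CPM in PRMT3-KD libraries. The groups did not overlap and the libraries within each group lay close together. The mean rose 1.65-fold, from 74.7 ± 0.486 CPM (SD, n = 2) to 123 ± 1.82 CPM (SD, n = 2), a fitted log2 change of 0.72 (SE 0.0685, 95% interval 0.54 to 0.90, adjusted p = 0.0170, edgeR).

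AGO3 was at 39.9 and 38.0 CPM in Ctrl and 54.8 and 58.0 CPM in PRMT3-KD libraries. It rose 1.45-fold (log2 fold change 0.53, 95% interval 0.31 to 0.76, adjusted p = 0.0267, edgeR), which passes the adjusted p but not the fold threshold. AGO4 was at 17.4 and 16.4 CPM in Ctrl and 11.6 and 17.7 CPM in PRMT3-KD libraries. The AGO4 groups overlapped, because PRMT3-KD library 2 was above both Ctrl values and library 1 below. Its log2 fold change was -0.20 with a 95% interval from -0.81 to 0.40 (adjusted p = 0.562, edgeR).

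**Figure D2:**
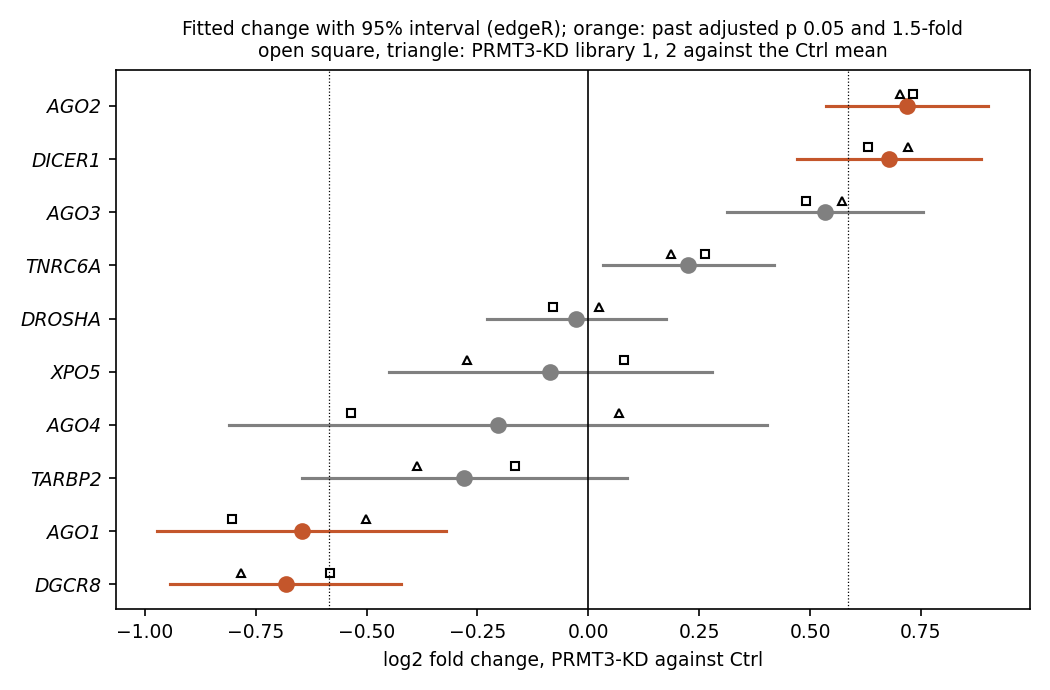
Log2 fold change of each of the 10 genes between PRMT3-KD and Ctrl libraries (horizontal axis), with the fitted value and its 95% interval as a point and line, each PRMT3-KD library against the Ctrl mean as an open symbol, and 1.5-fold as dotted lines. AGO2 and DICER1 at the top and AGO1 and DGCR8 at the bottom passed the threshold, and the open symbols of DROSHA, XPO5 and AGO4 fall on both sides of 0.

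AGO4, AGO1 and AGO3 are neighbours on the plus strand of chromosome 1 in GRCh37, AGO4 at chr1:36273617-36323491, AGO1 at chr1:36335409-36396133 and AGO3 at chr1:36396319-36538101. The annotated end of AGO1 and the start of AGO3 are 185 bases apart, and 11917 bases separate AGO4 from AGO1. Neighbouring genes thus included 1 that fell, 1 that rose by less than 1.5-fold and 1 whose groups overlapped. The canonical transcripts of AGO1 and AGO2 share 0 windows of 50 bases with transcripts of other genes, and those of AGO3 and AGO4 share 1.76% and 0.263%. The promoter windows of AGO1 (chr1:35882959-35883258) and AGO3 (chr1:35930855-35931154), both on the plus strand of GRCh38.p14, are shown because these neighbours moved in opposite directions. Each holds 2 GC boxes, and the AGO1 window also holds 1 CCAAT box where the AGO3 window holds 0. The window of XPO5, which did not pass, holds 2 GC boxes and 0 CCAAT boxes, as that of AGO3 does. A part of these boxes in the changes was not tested.
AGO1 promoter: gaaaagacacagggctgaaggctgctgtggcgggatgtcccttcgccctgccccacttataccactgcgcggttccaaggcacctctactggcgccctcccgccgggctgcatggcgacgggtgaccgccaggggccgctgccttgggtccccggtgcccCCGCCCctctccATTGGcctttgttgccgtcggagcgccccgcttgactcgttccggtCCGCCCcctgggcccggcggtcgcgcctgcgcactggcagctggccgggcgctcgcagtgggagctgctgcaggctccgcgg
AGO3 promoter: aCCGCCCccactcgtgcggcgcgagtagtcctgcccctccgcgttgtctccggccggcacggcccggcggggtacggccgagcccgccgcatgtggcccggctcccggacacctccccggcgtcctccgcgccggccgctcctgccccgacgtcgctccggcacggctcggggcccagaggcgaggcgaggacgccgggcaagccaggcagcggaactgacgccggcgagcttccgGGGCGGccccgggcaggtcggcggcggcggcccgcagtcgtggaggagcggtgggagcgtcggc

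AGO1 and AGO3 also share a feature that the other 8 genes lack. The last exon of each, exon 19, holds 1 copy of the 7-base sequence CAGCTCA in the 3′ UTR, at chr1:36387454-36387460 in AGO1 and chr1:36537808-36537814 in AGO3 (GRCh37, plus strand). This sequence was looked up because earlier results of these data had pointed to it, so its occurrence is a description. Of 12619 genes with an annotated 3′ UTR of at least 50 bases, 17.5% carry it, a share close to the 2 of 10 here. That share takes no account of UTR length, and a longer UTR has more places for a 7-base match. The 3′ UTR is 10925 bases long in AGO1 and 16755 in AGO3, and that of AGO2, which lacks the sequence, is 11888. The search covered the canonical transcript of each gene. The AGO3 copy lies 16462 bases past the stop codon, and annotated AGO3 coding transcripts run from 1035 to 19660 bases, so shorter ones may lack it. AGO1 and AGO3 lay on opposite sides of Ctrl, and a part of the site in these changes was not tested. The sites are shown with flanking bases, and capitals mark the shared sequence.
AGO1 site: ggaggaggCAGCTCActggagag
AGO3 site: tttttaagCAGCTCAtataatat

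Shares of the Argonaute genes were taken from CPM divided by the length of the coding part of each canonical transcript (2574 to 2586 bases). This length is nearly equal within the family, while whole canonical transcripts run from 7272 to 19660 bases. Counts can include reads from outside the coding part. These shares are thus close to shares of CPM and do not correct for transcript length. On this scale AGO1 made up 46.1% and 46.6% of the summed Argonaute level in Ctrl against 25.3% and 28.7% in PRMT3-KD libraries. AGO2 made up 30.6% and 30.9% in Ctrl and 48.7% and 43.95% in PRMT3-KD libraries. The order of the 2 genes was thus opposite in the groups, with AGO1 first in both Ctrl libraries and AGO2 first in both PRMT3-KD libraries. AGO3 took 15.7% to 16.25% in Ctrl and 20.9% to 21.5% in PRMT3-KD libraries, and AGO4 took between 4.53% and 7.06% in the 4 libraries. The summed level was 95.1 and 93.4 CPM per kb in Ctrl and 98.8 and 107 CPM per kb in PRMT3-KD libraries, a ratio of means of 1.09. The rank within a group depends on the length used. Per canonical transcript length AGO1 was first in Ctrl (mean 46.5%) and AGO2 in PRMT3-KD libraries (45.6%). AGO4 (13.2%) was above AGO3 (11.2%) in Ctrl on that scale, and below it in PRMT3-KD libraries (10.8% against 15.5%). With the median length of the protein-coding transcripts, AGO2 was already first in Ctrl at a mean of 47.5%, AGO1 was at 16.4%, and the mean summed level was 1.38-fold higher in PRMT3-KD libraries. The log2 ratio of AGO2 to AGO1 CPM needs no length to compare libraries: it was -0.59 in both Ctrl libraries against 0.95 and 0.62 after knockdown.

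**Figure D3:**
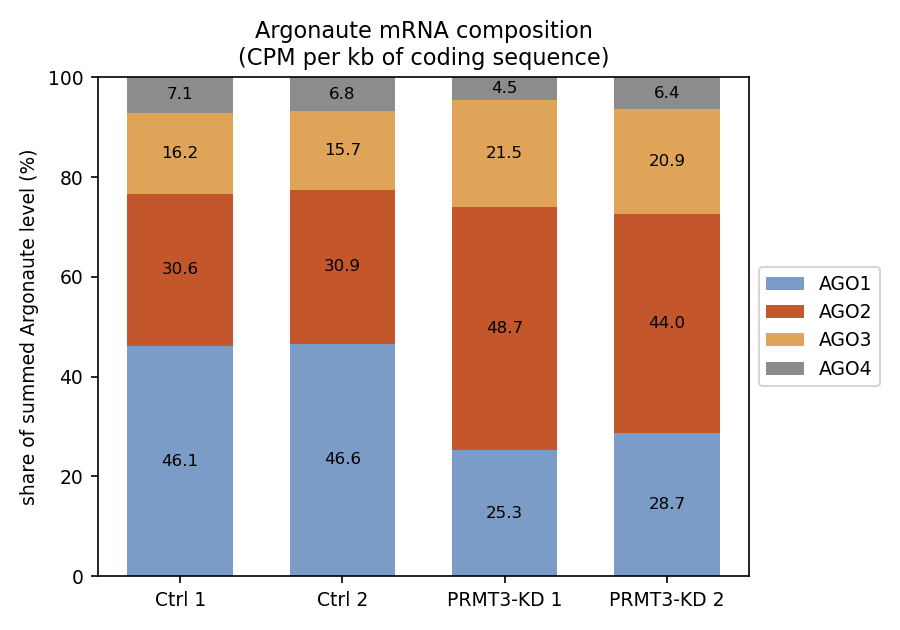
Share of the summed Argonaute mRNA level (percent, CPM per kb of coding sequence) taken by AGO1, AGO2, AGO3 and AGO4 in each of the 4 libraries, as stacked bars from 0 to 100. AGO1 takes the largest share in both Ctrl libraries, 46.1% and 46.6%, and AGO2 in both PRMT3-KD libraries, 48.7% and 43.95%.

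TNRC6A, a GW182 protein that links Argonaute to the deadenylases, was at 106 and 104 CPM in Ctrl and 127 and 120 CPM in PRMT3-KD libraries. Both PRMT3-KD values were above both Ctrl values, with a log2 fold change of 0.23 and a 95% interval from 0.033 to 0.42, and the gene did not pass (adjusted p = 0.0988, edgeR). Counting all 10 genes, the groups did not overlap for 7, 4 of them above Ctrl and 3 below, where 67.1% of all genes tested had both PRMT3-KD libraries on the same side of both Ctrl libraries.

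Over all 10 genes on the coding-length scale, AGO1 had the highest level in Ctrl and AGO4 the lowest. The order depends on the length used: per canonical transcript length and per median protein-coding transcript length DROSHA was first in Ctrl, AGO1 was in place 6 and 8, and the last was AGO3 and AGO4. On the coding-length scale, the Ctrl means were 43.7 ± 0.263 CPM per kb for AGO1, 36.4 ± 0.662 for DGCR8, 29.0 ± 0.188 for AGO2, 27.9 ± 0.366 for DROSHA and 26.5 ± 0.0336 for XPO5 (SD, n = 2 each). TNRC6A, TARBP2, AGO3, DICER1 and AGO4 followed, from 17.9 down to 6.53 CPM per kb, and TARBP2 (15.4 ± 1.41) and AGO3 (15.1 ± 0.537) did not differ beyond their spread. In PRMT3-KD libraries AGO2 was first at 47.7 ± 0.704 CPM per kb. The ranges of mean ± SD overlapped for AGO1 (27.9 ± 4.13), DROSHA (27.3 ± 1.40) and XPO5 (24.96 ± 4.32). The range of DGCR8 (22.7 ± 2.22) overlapped those of AGO1 and XPO5. AGO4 was again last on this scale. Per canonical transcript length DROSHA was first in PRMT3-KD libraries and AGO2 in place 6, while per median protein-coding transcript length AGO2 was first.

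The other genes of the pathway were then described by role. Of 12 partners of the Microprocessor, 0 passed the threshold by edgeR, DESeq2 or limma-voom, 6 had an unadjusted p under 0.05 (37.6% of all genes tested did), and the median log2 fold change was -0.25. On adjusted p alone, 3 of the 12 were lower and 1 higher, against 8.91% and 8.39% of all genes tested. The smallest p-values were those of KHSRP (-0.57, adjusted p = 0.0212, edgeR) and HNRNPA1 (-0.44, adjusted p = 0.0412, edgeR). KHSRP is a splicing and decay factor that binds microRNA precursors. Of 5 export partners, 0 passed the threshold by edgeR, DESeq2 or limma-voom, and 3 had an unadjusted p under 0.05, against 37.6% of all genes tested. NUP153, a nuclear pore protein, was lower on adjusted p alone (-0.41, adjusted p = 0.0321, edgeR), and RAN, the GTPase that exportins bind with their cargo, did not pass (-0.36, adjusted p = 0.118). All 5 had both PRMT3-KD values below both Ctrl values, as did 33.8% of all genes tested.

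Among 10 partners of Dicer and other double-stranded RNA-binding proteins, 1 passed, where 10.9% of all genes tested did. PRKRA (PACT), which like TARBP2 binds Dicer, was at 26.3 and 24.6 CPM in Ctrl and 14.0 and 15.9 CPM in PRMT3-KD libraries. Both PRMT3-KD values lay below both Ctrl values, with a log2 change of -0.77 (SE 0.115, adjusted p = 0.0252, edgeR). On adjusted p alone 3 of the 10 genes were higher and 3 lower, against 8.39% and 8.91% of all genes tested. Of the 10 chaperones that help load Argonautes, 0 passed the threshold by any of the 3 tools and 4 had an unadjusted p under 0.05, near the 37.6% of all genes tested, with DNAJA2 at 0.41 (adjusted p = 0.0326) and PTGES3, the p23 co-chaperone, at -0.35 (adjusted p = 0.0410) on the log2 scale.

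Downstream of Argonaute, 1 of 12 genes for proteins that bind GW182 or Argonaute passed, where 10.9% of all genes tested did. This gene was TNRC6C, which encodes another GW182 protein. It was at 18.4 and 19.0 CPM in Ctrl and 28.9 and 29.96 CPM in PRMT3-KD libraries, a log2 change of 0.65 (SE 0.0902, adjusted p = 0.0223, edgeR). In the CCR4-NOT and PAN deadenylase complexes, which shorten the poly(A) tail of target mRNAs, 2 of 12 genes passed and both were lower, where 5.97% of all genes tested passed as lower. CNOT9, listed under its older symbol RQCD1, was at 76.6 and 73.9 CPM in Ctrl and 34.8 and 28.2 CPM in PRMT3-KD libraries (log2 fold change -1.26, SE 0.127, adjusted p = 0.0172, edgeR). CNOT1, the scaffold of the complex, was at 328 and 330 CPM in Ctrl and 198 and 216 CPM in PRMT3-KD libraries (log2 fold change -0.67, SE 0.0781, adjusted p = 0.0193, edgeR). Both subunits fell in both PRMT3-KD libraries, while the median of the 12 was -0.056.

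DCP2, the catalytic decapping enzyme, was the only gene past the threshold among 12 decapping and decay factors, where 10.9% of all genes tested passed. It was at 45.2 and 44.5 CPM in Ctrl and 126 and 119 CPM in PRMT3-KD libraries, 2.73-fold higher, with a log2 change of 1.45 (SE 0.0753, adjusted p = 0.0140, edgeR). Of 7 tested genes of microRNA tailing and turnover, 2 passed as lower, both nucleases, where 5.97% of all genes tested did. ERI1, an exonuclease that acts on histone mRNA and small RNAs, was at 47.1 and 46.1 CPM in Ctrl and 22.04 and 21.8 CPM in PRMT3-KD libraries (log2 fold change -1.09, SE 0.0818, adjusted p = 0.0142, edgeR). DIS3L2, which degrades uridylated let-7 precursors, was at 20.3 and 21.2 CPM in Ctrl and 11.3 and 8.45 CPM in PRMT3-KD libraries (log2 fold change -1.07, SE 0.170, adjusted p = 0.0277, edgeR). LIN28A, LIN28B and TRIM71 were not analysed here, and of the PIWI genes only PIWIL2 was analysed, which had 2 to 7 counts in a library and did not pass the filter on low counts.

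**Figure D4:**
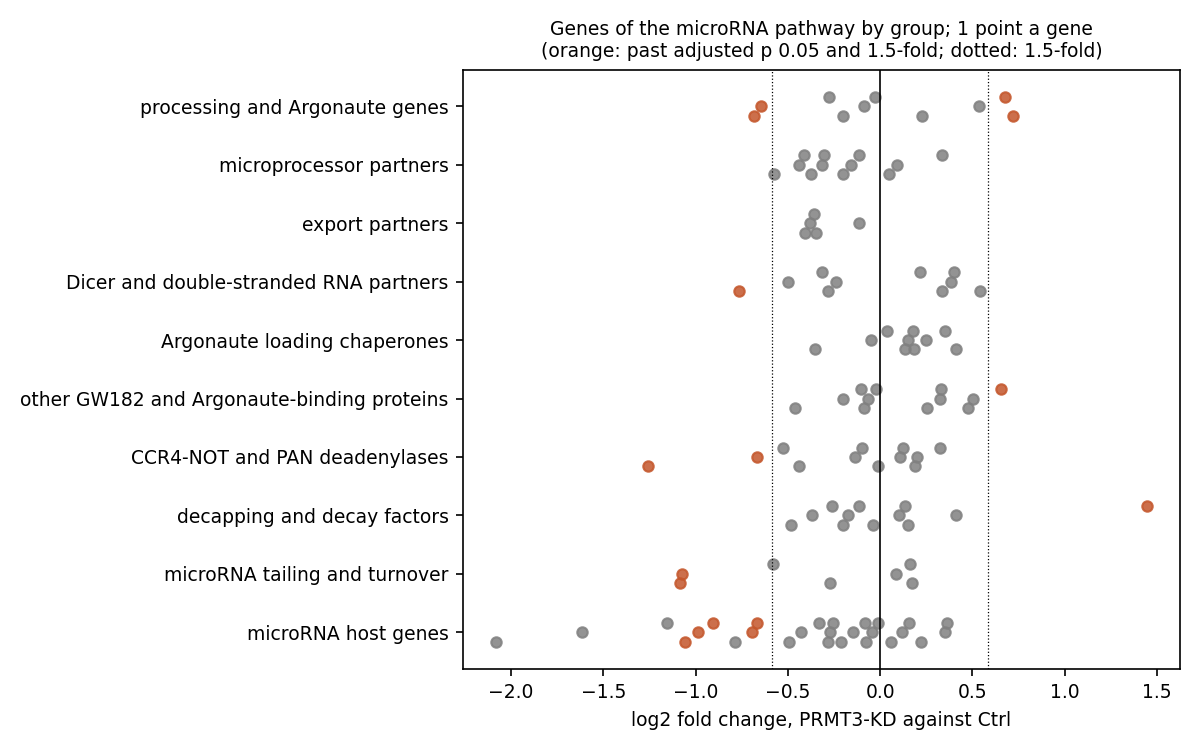
Log2 fold change between PRMT3-KD and Ctrl libraries (horizontal axis) of the genes of the pathway by group, 1 point per gene tested, with genes past the threshold in orange and 1.5-fold as dotted lines. The called genes include DCP2 at 1.45 on the right and CNOT9, ERI1, DIS3L2 and 5 microRNA host genes on the left.

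Primary and mature microRNAs were not measured, so the machinery's substrates were not followed. Gene counts of microRNA hosts are given instead, and these do not separate spliced mRNA from RNA that still holds the hairpin. Of 27 tested host genes, 5 passed as lower and 0 as higher by edgeR, where 5.97% and 4.97% of all genes tested did, and the median log2 fold change was -0.27. At an unadjusted p under 0.05, 13 were lower and 1 higher, against 18.5% and 19.1% of all genes tested. By DESeq2, 7 passed as lower (7.53% of all genes tested) and 0 as higher, and by limma-voom 6 passed as lower (6.85%) and 0 as higher. MCM7, a replication helicase subunit, was at 389 and 388 CPM in Ctrl and 225 and 149 CPM in PRMT3-KD libraries (log2 fold change -1.06, SE 0.211, adjusted p = 0.0409, edgeR). CTDSP1 was at 49.2 and 47.3 CPM in Ctrl and 26.3 and 22.4 CPM in PRMT3-KD libraries (-0.99, adjusted p = 0.0192), and R3HDM1 was at 93.9 and 96.1 CPM in Ctrl and 47.9 and 53.5 CPM in PRMT3-KD libraries (-0.91, adjusted p = 0.0172). All 3 were lower in both PRMT3-KD libraries. MIRLET7BHG, a non-coding host, was at 22.4 and 22.8 CPM in Ctrl and 12.9 and 15.0 CPM in PRMT3-KD libraries (-0.70, adjusted p = 0.0318, edgeR). COPZ1, the fifth, falls outside the rule for named genes and was named after its value was seen (-0.67, adjusted p = 0.0182, edgeR). The lowest fitted value, -2.08 for MIR210HG, also named after its value was seen, did not pass (adjusted p = 0.0689, edgeR), with 93 to 113 counts in Ctrl libraries against 10 to 38 in PRMT3-KD libraries.

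The main mature microRNAs that lie within these 5 host genes on the same strand are shown from RefSeq (GRCh38.p14) with the seed in capitals. The pathway can cut them from primary transcripts of these genes. MCM7 holds miR-106b, miR-93 and miR-25, CTDSP1 holds miR-26b, R3HDM1 holds miR-128, MIRLET7BHG holds let-7a and let-7b, and COPZ1 holds miR-148b. The sequences of let-7a-5p and let-7b-5p share the seed GAGGUAG, and miR-106b-5p and miR-93-5p share the seed AAAGUGC. The levels of the primary and mature forms cannot be read from these counts.
hsa-miR-106b-5p: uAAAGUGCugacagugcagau
hsa-miR-93-5p: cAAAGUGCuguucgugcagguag
hsa-miR-25-3p: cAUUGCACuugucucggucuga
hsa-miR-26b-5p: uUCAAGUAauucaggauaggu
hsa-miR-128-3p: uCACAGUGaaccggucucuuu
hsa-let-7a-5p: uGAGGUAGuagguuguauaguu
hsa-let-7b-5p: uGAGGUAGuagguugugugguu
hsa-miR-148b-3p: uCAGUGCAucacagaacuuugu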

How the data were processed

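RNA of U251 cells was sequenced in 4 libraries, 2 Ctrl and 2 PRMT3-KD, grouped by their titles. Per the study's methods and the submitters' processing notes, the authors aligned reads to hg19 with TopHat at default settings and deposited unnormalised counts per gene from Cufflinks. Tool versions, gene annotation and filters are not given in the sources used here, and neither is a sequencing batch. The table had 15576 rows, and 1 duplicate was removed.

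The fit used edgeR 4.0.16 under R 4.3.3 (filterByExpr, TMM, quasi-likelihood test, Benjamini-Hochberg adjustment over 13172 genes). Each SE is the size of the log2 change over the root of its F statistic. Total counts limit the precision of low genes, and counting error is part of the test. The alternatives were DESeq2 1.42.0, limma 3.58.1 (voom with group weights), other scalings, filters and thresholds, a replicate block and leaving out each library. The edgeR code was also run on simulated counts. Their spread was set equal in both groups, unlike in these libraries, so that run does not bear on the p-values given here. Gene models came from GENCODE 44 (lifted to GRCh37, read with Python 3.11.15), which held 13163 of the 13172 gene identifiers. RefSeq promoter windows were matched by symbol for 9 of the 10 genes, and the AGO2 promoter was not used here.

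Members and lists were chosen with earlier results of these data known. Named genes were all 10 members, PRMT3, and in each list the genes past the threshold, at most 4 with a mean of at least 5 CPM, by size of change, or, where none passed, the 2 with the smallest p. Cell type markers, TRMT2A, POLR1C, PIWIL2, COPZ1 and MIR210HG were named outside this rule, after their values were seen. The comparison of other genes' patterns with that of AGO2 is not reported here.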

Additional observations from a re-analysis of the deposited data

How the results depend on the processing

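The 4 genes past the threshold (AGO1, AGO2, DICER1 and DGCR8) passed in 8 of 8 alternatives of test, scaling, filter and pairing, and AGO3 passed the adjusted p alone in 8 of 8. When 1 library is left out, the lone library of its group is assumed to vary like the other group. The number of members past the threshold was then 0 to 4, the number past adjusted p alone 0 to 8 (main value 5), and the number of partner and host genes past the threshold 0 to 21 (main value 12). The value 0 came without Ctrl replicate 1 or without Ctrl replicate 2, where the spread comes from the PRMT3-KD pair and 0 and 26 of all genes passed. Without PRMT3-KD replicate 1, 3 members passed, since AGO1 was at -0.50, and without either PRMT3-KD library 8 passed the adjusted p alone, because the spread then comes from the close Ctrl pair. With no fold threshold, 30 partner and host genes passed in the main fit. Their lists held 12, 5, 10, 10, 12, 12, 12, 7 and 27 genes tested, in the order given above. Of all genes tested, 10.9% passed the threshold in the main fit and 17.3% passed the adjusted p alone. The median of the members ranged from -0.066 to 0.047 with a library left out, and the log2 fold change of PRMT3 from -3.61 to -2.68, with an adjusted p of 0.0963 and 0.0512 (edgeR) without Ctrl replicate 1 and 2. Over the same fits AGO4 ranged from -0.55 to 0.070, DROSHA from -0.085 to 0.024 and XPO5 from -0.27 to 0.076, so their direction depended on 1 PRMT3-KD library.

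In the fit with a replicate block, AGO1 was at -0.65 (adjusted p = 0.0353), AGO2 at 0.72 (0.0235), DICER1 at 0.68 (0.0261), DGCR8 at -0.69 (0.0271) and AGO3 at 0.53 (0.0490, all edgeR), the number of members past the threshold was 4, and the block changed no member's call. Libraries with the same number had deviations that correlated at 0.026 across genes. The Ctrl deviations are close to counting error, so this correlation cannot tell whether the labels' numbers mark pairs. The sources used here do not say that they do, and the main fit did not take them as pairs. AGO4 and TARBP2 had the lowest counts of the 10 genes, but the width of the intervals did not follow depth alone. AGO4 had an SE of 0.227, with 294 and 504 counts in the PRMT3-KD libraries. XPO5, at 2250 to 2656 counts, had an SE of 0.136, and TARBP2, at 367 to 501 counts, 0.137.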
